A study of Homo sapiens with 14 samples.

Results

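Polycomb repressive complex 2 (PRC2) was followed through the mRNA of 10 of its subunit genes, chosen by gene name: the catalytic subunits EZH2 and EZH1, the core subunits EED, SUZ12, RBBP4 and RBBP7, and the accessory subunits JARID2, AEBP2, MTF2 and PHF19. Each of the 10 was listed once in both gene count tables, among 17810 genes in the first and 19143 in the second, and each passed the filter on low counts in both. RNA-seq had been made from CHP-134, a human neuroblastoma cell line with amplified MYCN. In the first experiment, CHP-134 lines engineered with a Tet-On system received 1 µg/ml doxycycline for 3 days to induce either enhanced green fluorescent protein (EGFP, n = 3) or OmoMYC (n = 3), a MYC-derived protein that interferes with MYC family function, so both groups carried the inducible system and the antibiotic. In the second experiment, parental CHP-134 cells received 500 nM dTAG47 (n = 4), a compound that brings proteins carrying an FKBP12 tag to degradation, or its solvent DMSO (n = 4), for 18 h. Parental cells carry no such tagged protein, so this comparison asks what the compound does on its own. EGFP and OmoMYC were induced in separately engineered lines, so the line and the protein cannot be told apart.

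PRC2 is the enzyme complex that methylates lysine 27 of histone H3, a mark found at silent developmental genes. EZH2 or its paralog EZH1 carries the methyltransferase domain, EED binds the methylated histone tail and stimulates the enzyme, SUZ12 holds the assembly together, and RBBP4 or RBBP7 binds histones. MTF2 and PHF19 are Polycomb-like proteins that mark a form of the complex distinct from the form with JARID2 and AEBP2. EZH2 is typical of dividing cells and EZH1 of resting cells, and EZH2 has been studied as a drug target in neuroblastoma.

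Total counts ranged from 28060817 to 38358128 in the EGFP and OmoMYC libraries and from 40861430 to 53451641 in the parental libraries. MYC, on which reads of the MYC-derived transgene can fall, had 16 to 20 counts in EGFP and 15040 to 20295 in OmoMYC libraries, and MYCN had at least 65298 counts in every library. The summed level of 9 adrenergic neuroblastoma markers was 1427 to 1748 CPM (counts scaled to library depth) in the engineered and 1550 to 1683 in the parental libraries. That of 6 mesenchymal and fibroblast markers was 46.2 to 55.7 CPM in the engineered and 15.4 to 18.0 in the parental libraries, a difference not tested. Together 11 markers of blood, endothelial, epithelial and Schwann cells reached 7.35 to 9.54 CPM in the engineered, 9.32 to 10.2 in the DMSO and 12.0 to 16.0 in the dTAG47 libraries. The sum thus moved with dTAG47 without overlap, and its part in the results on dTAG47 was not tested. EGFP replicate 1 stood apart: a chi-square statistic of its counts per degree of freedom was 22.1 against replicate 2 and 44.3 against replicate 3, where the other replicate pairs of that experiment gave 2.86 to 8.94. In the parental cells dTAG47 replicate 2 gave 15.3 against replicate 3 and 23.3 against replicate 4, where the other replicate pairs gave 2.68 to 11.7. Libraries also differed in how levels ran with transcript GC content. With the tested genes in 5 equal bins of GC content, the median deviation of the lowest bin from the experiment's mean was 0.29, 0.12 and 0.00 on the log2 scale in EGFP replicates 1, 2 and 3, against -0.12, -0.08 and -0.20 in the OmoMYC replicates, and the highest bin ran the other way. This trend moved with the groups, so the log2 fold changes of the members in OmoMYC are given with and without a correction for it.

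The sequences upstream of the members show what binding motifs of cell cycle and MYC family factors lie near their start sites. RefSeq promoter windows were searched on both strands for the E2F letters TTTCCCGC, TTTCGCGC, TTTGCCGC and TTTGGCGC, for the E-box CACGTG that MYC family proteins bind, and for the cell cycle element CHR (TTTGAA). Of all 35116 windows of the same length in the table, 3.31% held the E2F letters, 7.26% the E-box and 15.2% the CHR letters. The E2F letters were found at EZH2, EZH1, SUZ12, AEBP2, MTF2 and PHF19, the E-box at RBBP4, and the CHR letters at SUZ12, while the windows of EED, RBBP7 and JARID2 held none of them. EZH2, RBBP4, RBBP7, JARID2 and PHF19 have 2 windows each, and the others have 1. At EZH2, RBBP4 and PHF19 the letters were in only 1 of the 2 windows. The finds are thus given by gene, whereas the shares are by window. Such a match is a description of letters and not evidence of binding. Shown are only windows that held letters, those of the catalytic pair, of SUZ12 and MTF2, and of RBBP4, with the motif letters in capitals. The AEBP2 and PHF19 windows with E2F letters, and all windows without letters, are left out. Those shown run from 250 bases before to 20 bases after the start site. They lie, on GRCh37, at chr7:148581364-148581633 on the minus strand (EZH2), chr17:40897039-40897308 on the minus strand (EZH1), chr17:30263776-30264045 on the plus strand (SUZ12), chr1:93544590-93544859 on the plus strand (MTF2) and chr1:33116559-33116828 on the plus strand (RBBP4).
EZH2: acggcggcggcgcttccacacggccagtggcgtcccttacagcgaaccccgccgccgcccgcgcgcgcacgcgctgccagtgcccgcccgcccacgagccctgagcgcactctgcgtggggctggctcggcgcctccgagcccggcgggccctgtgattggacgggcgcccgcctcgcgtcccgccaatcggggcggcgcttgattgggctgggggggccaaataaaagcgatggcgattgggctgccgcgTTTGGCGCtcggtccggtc
EZH1: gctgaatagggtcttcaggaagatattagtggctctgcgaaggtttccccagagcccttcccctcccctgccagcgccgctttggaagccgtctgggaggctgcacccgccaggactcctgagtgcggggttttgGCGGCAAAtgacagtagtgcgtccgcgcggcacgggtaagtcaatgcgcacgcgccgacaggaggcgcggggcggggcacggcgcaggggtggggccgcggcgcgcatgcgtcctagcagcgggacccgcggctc
SUZ12: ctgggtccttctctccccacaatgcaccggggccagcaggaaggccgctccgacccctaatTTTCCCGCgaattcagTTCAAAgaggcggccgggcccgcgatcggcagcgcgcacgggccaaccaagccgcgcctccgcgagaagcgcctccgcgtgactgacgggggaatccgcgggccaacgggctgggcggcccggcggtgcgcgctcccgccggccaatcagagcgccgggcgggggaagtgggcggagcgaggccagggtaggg
MTF2: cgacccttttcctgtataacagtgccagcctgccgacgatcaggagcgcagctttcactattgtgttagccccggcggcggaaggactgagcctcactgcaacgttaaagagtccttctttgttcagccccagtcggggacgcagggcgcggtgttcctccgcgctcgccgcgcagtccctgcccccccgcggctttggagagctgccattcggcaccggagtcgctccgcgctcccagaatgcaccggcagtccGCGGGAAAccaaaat
RBBP4: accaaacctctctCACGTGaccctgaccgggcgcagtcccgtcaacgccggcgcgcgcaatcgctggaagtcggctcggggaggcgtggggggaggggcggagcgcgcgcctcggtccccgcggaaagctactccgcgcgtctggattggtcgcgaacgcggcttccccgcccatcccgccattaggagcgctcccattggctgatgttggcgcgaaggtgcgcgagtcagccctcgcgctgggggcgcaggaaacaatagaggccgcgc
The E2F letters sit downstream of the start at EZH2 and at MTF2, and upstream of it at EZH1 and SUZ12. In SUZ12 both the E2F and the CHR letters lie upstream of the start.

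Compared per length, as RPKM (reads scaled to the length of a gene's exons in kilobases and to library depth), RBBP4 was the most abundant member in all 4 groups and JARID2 the next. RBBP4 stood at 77.6 ± 1.73 RPKM in EGFP, 63.8 ± 1.08 in OmoMYC, 67.4 ± 2.26 in DMSO and 67.0 ± 2.32 in dTAG47 (SD, n = 3, 3, 4 and 4). JARID2 stood at 47.7 ± 1.17, 42.7 ± 2.17, 33.9 ± 0.370 and 33.9 ± 1.06 RPKM in the same order. RBBP4 also serves complexes other than PRC2, and its level is therefore not a level of PRC2. RBBP7 and SUZ12 came next in EGFP, at 19.0 ± 1.67 and 16.6 ± 1.96 RPKM, and their libraries overlapped. PHF19, EZH2, EZH1 and MTF2 lay together between 10.4 and 11.7 RPKM in EGFP, and each overlapped with its neighbour in that order. AEBP2 (5.41 ± 0.795 RPKM) and EED (3.75 ± 0.694 RPKM) were the lowest there and in the other groups.

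The order in the middle differed between groups. EZH1 exceeded EZH2 in OmoMYC, at 12.9 ± 0.324 against 9.22 ± 0.279 RPKM, without overlap between libraries. In DMSO it was EZH2 that was higher, at 13.4 ± 0.378 against 9.71 ± 0.486 RPKM, and likewise in dTAG47, at 13.2 ± 0.171 against 9.97 ± 0.187 RPKM. These levels depend on the length used. Over the longest annotated transcript instead of all exons, EZH2 in EGFP came to 26.2 ± 1.19 RPKM and stayed above EZH1, at 16.1 ± 0.299, and in OmoMYC too it was above EZH1, at 22.1 ± 0.668 against 19.4 ± 0.489. EED then came to 9.48 ± 1.76 RPKM in EGFP, above AEBP2 at 6.28 ± 0.923. The engineered and parental cells were counted in separate tables, so levels across them were not tested.

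**Figure D1:**
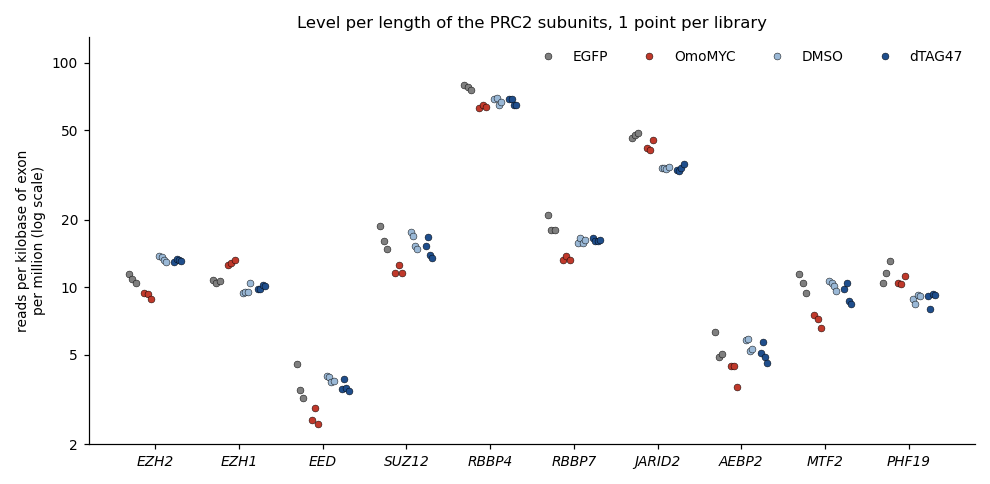
Level of each PRC2 subunit in RPKM on a log axis, 1 point per library, coloured by group. RBBP4 and JARID2 lie above the other 8 members in every library, and EED lies lowest, from 2.47 to 4.54.

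The first comparison asks how the members changed when OmoMYC was induced. Of the 10 members, 7 were lower in OmoMYC than in EGFP, 1 was higher and 2 were not called, at an adjusted p under 0.05 by edgeR's quasi-likelihood test. MTF2, EED, RBBP7 and SUZ12 fell most, with changes of -31.7% to -28.0%, EZH2, RBBP4 and AEBP2 changed by -22.8% to -15.7%, and EZH1 was the member that rose, by 20.7%. Many genes moved in this experiment: 25.7% of the 13803 genes tested were called lower and 27.3% higher. The median log2 fold change was -0.33 over the 10 members and 0.01 over all genes tested. With the GC and length trend of each library removed, 6 members were called lower and 1 higher, against 27.6% and 31.2% of all genes with such a correction, and the member median was -0.14. Counts in these bulk samples cannot tell fewer cells expressing a gene from less RNA per cell.

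**Figure D2:**
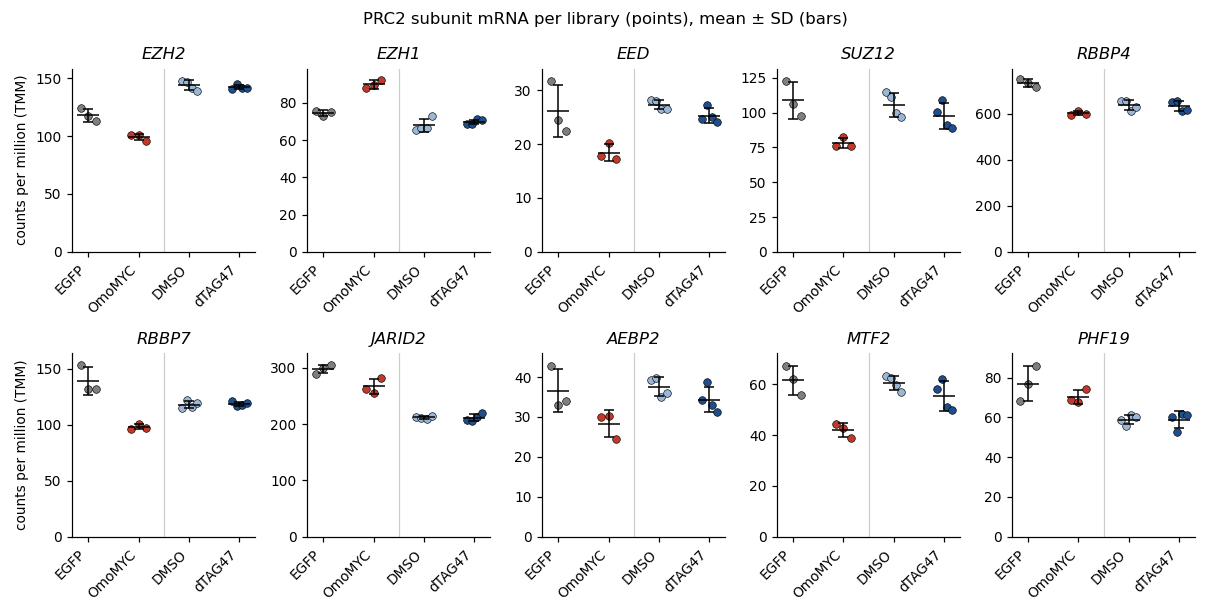
Level of each PRC2 subunit in CPM, scaled by TMM factors, 1 point per library with the group mean and SD; the grey line parts the engineered from the parental experiment. In 9 of the 10 genes no OmoMYC library overlaps with an EGFP library, PHF19 being the exception, and DMSO and dTAG47 overlap in all 10.

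Of the catalytic pair, EZH2 (chr7:148504349-148581413, minus strand, GRCh37) counted 124, 117 and 113 CPM in the EGFP and 101, 101 and 95.9 CPM in the OmoMYC replicates. Every OmoMYC library was below every EGFP library. The log2 fold change was -0.25 ± 0.07 (SE; adjusted p = 0.0112), but with the GC correction it was 0.01 ± 0.04 (adjusted p = 0.890), so the fall of EZH2 was not called there. EZH1 (chr17:40852293-40897067, minus strand) counted 75.7, 73.0 and 74.9 CPM in EGFP and 87.8, 89.6 and 92.3 CPM in OmoMYC. All 3 OmoMYC libraries lay above the EGFP libraries, and the replicates of a group differed little. Its log2 fold change was 0.27 ± 0.07 (adjusted p = 0.00589) and 0.18 ± 0.04 with the GC correction (adjusted p = 0.00112). The call of EZH1 was lost without EGFP replicate 2 (adjusted p = 0.0568) and without OmoMYC replicate 3 (adjusted p = 0.0527).

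Among the core subunits, EED (chr11:85912254-85989855, plus strand) counted 31.7, 24.5 and 22.5 CPM in EGFP and 17.8, 20.2 and 17.3 CPM in OmoMYC. The groups did not overlap, and EGFP replicate 1 was the highest. Its log2 fold change of -0.51 ± 0.13 (adjusted p = 0.00699) was -0.36 ± 0.09 without EGFP replicate 1 (adjusted p = 0.00253) and -0.04 ± 0.06 with the GC correction (adjusted p = 0.636). EED has the lowest transcript GC content of the members, 33.0% against a median of 48.3% over all genes tested.

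SUZ12 (chr17:30264026-30328057, plus strand) counted 123, 106 and 97.3 CPM in EGFP and 75.9, 82.5 and 76.0 CPM in OmoMYC, again without overlap. The log2 fold change was -0.47 ± 0.09 (adjusted p = 0.00158), and with the GC correction -0.14 ± 0.04 (adjusted p = 0.00453). SUZ12 thus stayed called lower at a smaller size.

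The histone-binding paralogs both fell. RBBP4 (chr1:33116743-33151812, plus strand) counted 751, 737 and 718 CPM in EGFP and 596, 615 and 600.4 CPM in OmoMYC, with a log2 fold change of -0.28 ± 0.06 (adjusted p = 0.00191). RBBP7 (chrX:16857406-16888485, minus strand) counted 153, 132 and 132 CPM in EGFP and 96.6, 101 and 97.0 CPM in OmoMYC, with a log2 fold change of -0.50 ± 0.08 (adjusted p = 0.000407). Neither gene's groups overlapped. Both calls held with the GC correction, at -0.13 ± 0.04 for RBBP4 (adjusted p = 0.00974) and -0.27 ± 0.04 for RBBP7 (adjusted p = 6.67e-06). RBBP4, SUZ12, EZH2 and EED have annotated pseudogenes with similar sequence, and how shared reads were counted is not given in the sources used here.

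Of the Polycomb-like subunits MTF2 was called lower and PHF19 was not, but their ratio overlapped between the groups, as described below. MTF2 (chr1:93544792-93604636, plus strand) counted 67.1, 61.9 and 55.6 CPM in EGFP and 44.4, 42.7 and 38.9 CPM in OmoMYC. Its groups lay well apart, and the log2 fold change of -0.55 ± 0.09 (adjusted p = 0.000589) was the largest of the members in size. PHF19 (chr9:123617929-123657174, minus strand) counted 68.4, 76.6 and 86.1 CPM in EGFP and 68.8, 67.9 and 74.1 CPM in OmoMYC. Here the groups overlapped through EGFP replicate 1, which was the lowest EGFP library, and the log2 fold change of -0.13 ± 0.09 missed the threshold (adjusted p = 0.241). Without that library PHF19 was called lower, at -0.23 ± 0.07 (adjusted p = 0.00993). The GC correction reversed the order of the pair, with PHF19 at -0.40 ± 0.04 (adjusted p = 1.37e-07) and MTF2 at -0.20 ± 0.05 (adjusted p = 0.00175). PHF19 has the highest transcript GC content of the members, 56.6%, and MTF2 one of the lowest, 37.5%.

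JARID2 (chr6:15246300-15522273, plus strand), which recruits and activates the complex, counted 289.7, 299 and 304 CPM in EGFP and 262, 256 and 282 CPM in OmoMYC. The groups did not overlap, yet the log2 fold change of -0.16 ± 0.06 missed the threshold (adjusted p = 0.0552). DESeq2 called it at -0.18 ± 0.07 (adjusted p = 0.0383), the edgeR fit without EGFP replicate 1 at -0.20 ± 0.06 (adjusted p = 0.00784), and the fit with the GC correction at -0.27 ± 0.04 (adjusted p = 5.77e-06). AEBP2 (chr12:19556979-19873735, plus strand), its partner in the same form of the complex, counted 42.8, 32.9 and 34.1 CPM in EGFP and 30.1, 30.3 and 24.4 CPM in OmoMYC. The groups were close but did not overlap. The log2 fold change was -0.37 ± 0.12 (adjusted p = 0.0232). AEBP2 was no longer called without OmoMYC replicate 3 (adjusted p = 0.0748) or with the GC correction, at -0.09 ± 0.07 (adjusted p = 0.270).

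Over the 10 members, 9 had groups that did not overlap, 8 of them lower and 1 higher in OmoMYC, where 30.3% of all genes tested were lower without overlap and 32.0% higher. Leaving out EGFP replicate 1 raised the number of members called lower from 7 to 9, where 27.8% of all genes were called lower. RBBP7, MTF2, RBBP4 and SUZ12 were called lower by edgeR as a whole, without EGFP replicate 1 and with the GC correction, and EZH1 was called higher in all 3.

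**Figure D3:**
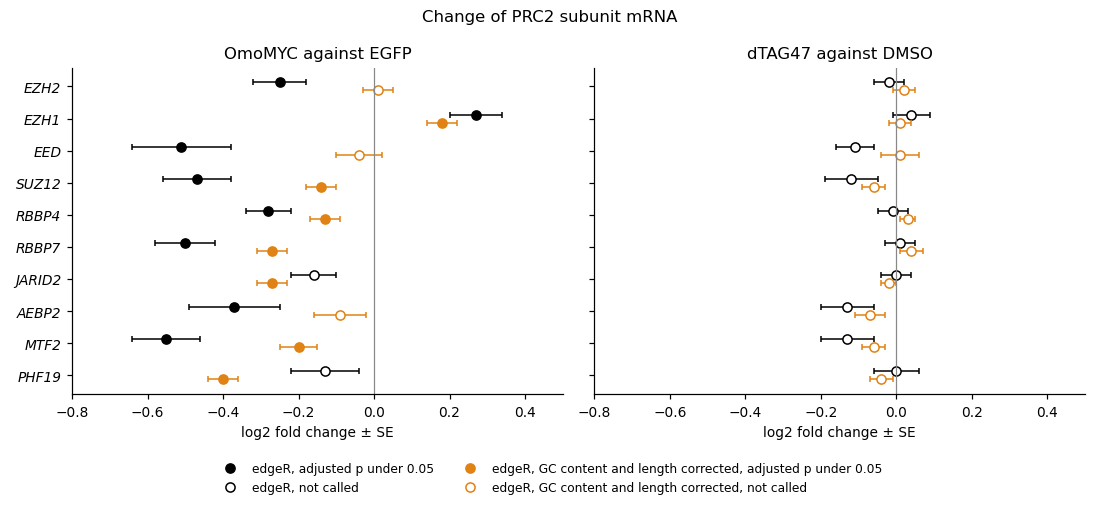
Log2 fold change ± SE of each PRC2 subunit in both comparisons, before (black) and after (orange) removal of each library's trend on GC content and length; filled points have an adjusted p under 0.05. With the correction EZH2, EED and AEBP2 lie within 0.09 of 0 in the OmoMYC comparison, while PHF19 and JARID2 become called.

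The relation to GC content is visible over all genes. In the OmoMYC comparison the median log2 fold change over all genes tested was -0.29 in the lowest bin of GC content, -0.17, 0.02 and 0.20 in the next bins and 0.33 in the highest. EZH2 (40.8% GC), RBBP4 (41.4%) and RBBP7 (42.0%) fall in the next to lowest bin, and EED, SUZ12 (38.2%), AEBP2 (38.6%) and MTF2 in the lowest. JARID2 (49.9%) and EZH1 (50.6%) share the middle bin but differed in direction, at -0.16 and 0.27. In the dTAG47 comparison the same medians ran from -0.07 to 0.05. The bars and the corrected fit are not the same measure: EZH2 and EED lay below their bars but stood at 0.01 and -0.04 with the correction, which also takes transcript length and each library's own trend into account. Since the trend separates EGFP from OmoMYC libraries, a change of low-GC transcripts in the cells and a difference in how the libraries were made cannot be told apart.

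**Figure D4:**
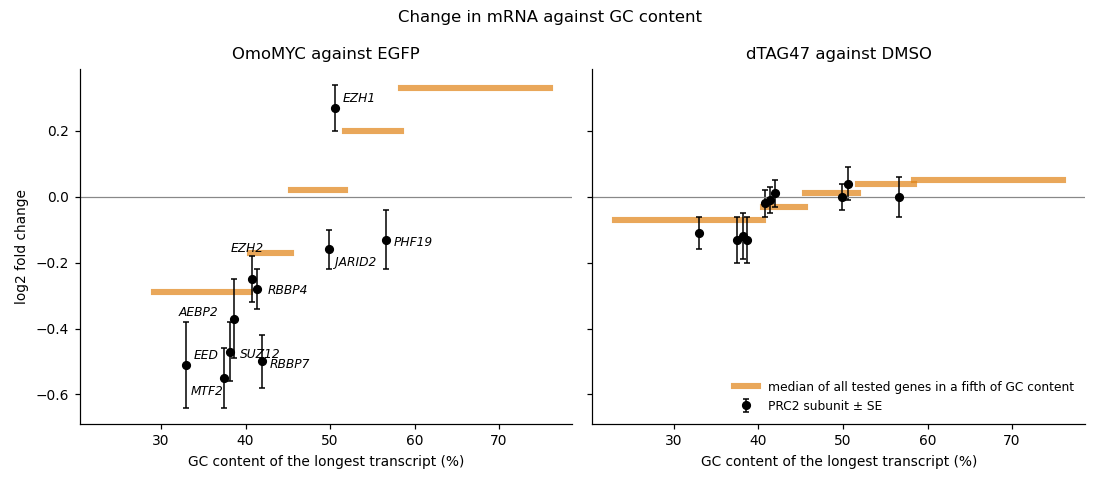
Log2 fold change of the PRC2 subunits (black, ± SE) against the GC content of their longest transcript, with the median of all genes tested in each of 5 bins of GC content (orange bars). In the OmoMYC comparison the medians rise from -0.29 to 0.33, and 8 of the 10 members, all but EZH1 and AEBP2, lie more than 1 SE below the bar at their GC content, as do 37.8% of all genes tested.

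The second comparison asks whether dTAG47 alone moved the members in parental cells. None of the 10 was called by edgeR, where 0.159% of the 14470 genes tested were called in either direction. No member reached an unadjusted p under 0.05 by edgeR, where 1053 of all 14470 genes tested did. DESeq2, which called 0.408% of all genes, called none of the members. The log2 fold changes ran from -0.13 to 0.04, and the median over the members was -0.01 against 0.00 over all genes. In none of the 10 did DMSO and dTAG47 libraries part without overlap, as 3.34% of all genes did.

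EZH2 counted 148, 147, 142 and 139 CPM in the DMSO and 140.5, 145, 142 and 142 CPM in the dTAG47 replicates, a log2 fold change of -0.02 ± 0.04 (adjusted p = 0.896). Its 95% interval from the SE runs from -0.09 to 0.06. EZH1 counted 65.5, 66.4, 66.5 and 72.9 CPM in DMSO and 68.8, 68.4, 71.1 and 70.5 CPM in dTAG47, with DMSO replicate 4 above all others. Its log2 fold change was 0.04 ± 0.05 (adjusted p = 0.805), with an interval from -0.05 to 0.13. RBBP4, RBBP7, JARID2 and PHF19 each stayed within 0.01 of 0 on the log2 scale, with SE between 0.04 and 0.06.

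The 4 members with the lowest GC content gave the largest differences. SUZ12 counted 115, 111, 99.7 and 96.9 CPM in DMSO and 100.4, 109, 91.3 and 88.7 CPM in dTAG47. Each dTAG47 library was below the DMSO library of the same replicate number, although the groups overlapped. Its log2 fold change was -0.12 ± 0.07 (adjusted p = 0.680). MTF2 counted 63.3, 62.3, 59.7 and 57.0 CPM in DMSO and 58.2, 62.2, 51.1 and 49.7 CPM in dTAG47, again lower in each of the 4 same-numbered pairs, and its log2 fold change was -0.13 ± 0.07 (adjusted p = 0.673). Without dTAG47 replicate 2, the library that stood apart, SUZ12 was at -0.18 ± 0.06 (adjusted p = 0.113) and MTF2 at -0.19 ± 0.06 (adjusted p = 0.0907). With the replicate number as a block, both were called, SUZ12 at -0.12 ± 0.03 (adjusted p = 0.0337) and MTF2 at -0.13 ± 0.04 (adjusted p = 0.0417), where 2.50% of all genes were called lower and 2.11% higher. The block takes same-numbered libraries as belonging together, but only replicates 2 and 4 correlated best with their own number. With the block and the GC correction together, which called 0.528% of all genes lower, neither was called, at -0.06 ± 0.03 for SUZ12 (adjusted p = 0.330) and -0.06 ± 0.03 for MTF2 (adjusted p = 0.376).

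Replicates 3 and 4, which resembled each other more than they resembled replicates 1 and 2 in DMSO, were also fitted alone, with 2 libraries per group. MTF2 was at -0.21 ± 0.05 (adjusted p = 0.000344) and SUZ12 at -0.13 ± 0.04 (adjusted p = 0.0186), where 3.24% of all genes were called lower. In these libraries the median deviation of the lowest GC bin was -0.02 and -0.04 in DMSO and -0.08 and -0.13 in dTAG47. No GC-corrected fit of them was made. In replicates 1 and 2 alone MTF2 and SUZ12 stood at -0.05 ± 0.06 (adjusted p = 0.885) and -0.10 ± 0.05 (adjusted p = 0.726). EED and AEBP2 stood at -0.11 ± 0.05 (adjusted p = 0.673) and -0.13 ± 0.07 (adjusted p = 0.673) in all 8 libraries. EED counted 28.2, 28.0, 26.6 and 26.6 CPM in DMSO and 24.6, 27.3, 25.0 and 24.2 CPM in dTAG47. AEBP2 counted 39.3, 39.8, 35.0 and 36.1 CPM in DMSO and 34.3, 38.7, 33.1 and 31.3 CPM in dTAG47. Both were lower in each of the 4 same-numbered pairs, with overlapping groups, and with the block EED had an adjusted p of 0.123 and AEBP2 of 0.0585. Neither was called in any of the fits, with EED at 0.01 ± 0.05 under the GC correction.

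Whether a member responded differently to OmoMYC than to dTAG47 was tested in 1 fit over all 14 libraries, as the difference of the effects within each experiment. The difference was called below 0 for 7 members, EZH2, EED, SUZ12, RBBP4, RBBP7, JARID2 and MTF2, and above 0 for EZH1, where 24.0% of the 14525 genes tested were called below and 19.7% above. The call of JARID2, at -0.20 ± 0.06 (adjusted p = 0.0197), was lost by library size only (adjusted p = 0.103) and without OmoMYC replicate 1 or 2, DMSO replicate 1 or 2, or dTAG47 replicate 3 or 4 (adjusted p from 0.0554 to 0.0876). The difference was largest for RBBP7, at -0.55 ± 0.08 (adjusted p = 1.88e-05), and for MTF2, at -0.46 ± 0.11 (adjusted p = 0.00346). For EZH2 it was -0.27 ± 0.06 (adjusted p = 0.00291) and for EZH1 0.19 ± 0.07 (adjusted p = 0.0347). EZH1 was no longer called without EGFP replicate 2 (adjusted p = 0.0828), OmoMYC replicate 3 (adjusted p = 0.0530) or DMSO replicate 4 (adjusted p = 0.0583). AEBP2, at -0.28 ± 0.14 (adjusted p = 0.103), and PHF19, at -0.17 ± 0.11 (adjusted p = 0.206), were not called. With the GC correction the difference remained called below 0 for RBBP4, RBBP7, JARID2 and MTF2 and above 0 for EZH1, became called for PHF19, at -0.37 ± 0.06 (adjusted p = 2.28e-06), and was no longer called for EZH2, at -0.04 ± 0.05 (adjusted p = 0.515), EED or SUZ12. That fit called 25.8% of all genes below 0 and 24.2% above. The experiments also differed in cell line engineering and length of treatment, which cannot be told apart from the agent.

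Ratios between subunits within a library do not depend on how libraries are scaled. The ratio of EZH2 to EZH1 counts was 1.63, 1.61 and 1.51 in EGFP and 1.15, 1.13 and 1.04 in OmoMYC. The groups did not overlap, and the log2 ratio differed by -0.52 (exact two-sided permutation p = 0.100, the smallest that 3 against 3 libraries can give). In the parental cells the ratio was 2.26, 2.21, 2.13 and 1.91 in DMSO and 2.04, 2.12, 2.00 and 2.01 in dTAG47. These overlapped, and the log2 ratio differed by -0.06 (exact permutation p = 0.371, where 4 against 4 can reach 0.0286). All 11 other engineered and parental libraries had a higher EZH2 to EZH1 ratio than the OmoMYC libraries, though this was not tested across experiments. From the log2 fold changes with the GC correction, the difference between EZH2 and EZH1 came to -0.17 in OmoMYC and 0.01 in dTAG47, values with no test.

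RBBP4 exceeded RBBP7 by 4.89, 5.57 and 5.44 times in EGFP and by 6.17, 6.08 and 6.19 times in OmoMYC. The log2 difference of 0.22 came without overlap (exact permutation p = 0.100). JARID2 over AEBP2 differed by 0.21 (exact permutation p = 0.600) and MTF2 over PHF19 by -0.42 (exact permutation p = 0.200) on the log2 scale, both with overlapping libraries. Corrected for GC, the differences were 0.14 for RBBP4 over RBBP7, -0.18 for JARID2 over AEBP2 and 0.20 for MTF2 over PHF19, so the differences of JARID2 over AEBP2 and of MTF2 over PHF19 changed sign. In dTAG47 against DMSO the log2 differences of RBBP4 over RBBP7, JARID2 over AEBP2 and MTF2 over PHF19 were -0.02, 0.13 and -0.13 (exact permutation p = 0.571, 0.200 and 0.371). Adjusted over the 8 ratio tests, no p was below 0.400.

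**Figure D5:**
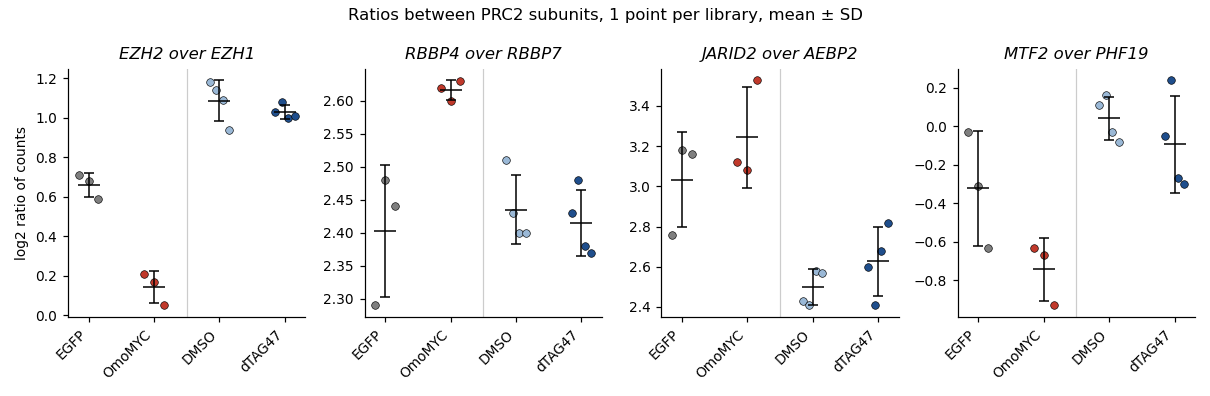
Log2 ratio of counts between paired PRC2 subunits, 1 point per library with the group mean and SD; the axes differ between panels and do not start at 0. The OmoMYC libraries lie between 0.05 and 0.21 for EZH2 over EZH1, below the EGFP libraries at 0.59 to 0.71.

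The profile of EZH2 over the 14 libraries, without the GC correction and with each gene centred on its mean within an experiment, was closest to those of SERBP1, TRIP12, MTDH, TARDBP and NEDD4L. Their root mean square differences from EZH2 were 0.021, 0.021, 0.025, 0.025 and 0.027 on the log2 scale, where the median over 13423 genes was 0.174. Among the members RBBP4 was closest to EZH2, at 0.036 and rank 55, and EZH1 farthest, at 0.182 and rank 7056.

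Other genes of the Polycomb system were described by lists. Of the other accessory genes, the engineered table listed PHF1 under 2 identifiers, with 68 to 141 counts under the first and 0 to 5 under the second, whereas the parental table had 1197 to 1681 counts under the second. The first identifier was called lower in OmoMYC, at -0.53 ± 0.17 (adjusted p = 0.0210), but its counts there are uncertain. C17orf96, now named EPOP, was at 0.30 ± 0.12 (adjusted p = 0.0542), LCOR at 0.08 ± 0.09 and LCORL at 0.00 ± 0.11, and none of these was called. CXorf67, now named EZHIP, an inhibitor of the complex, had 0 to 2 counts in the parental libraries.

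Polycomb repressive complex 1, which reads the mark left by PRC2 and ubiquitinates histone H2A, had called genes in both directions, at shares near those of all genes. Of its 20 genes tested, 5 were lower and 6 higher in OmoMYC, with a median of 0.08, where 25.7% of all genes were lower and 27.3% higher. With the GC correction 6 of 19 were lower and 6 higher, with a median of -0.04. The chromobox gene CBX7 rose from 2.72 ± 0.646 to 7.34 ± 0.671 CPM (log2 fold change 1.44 ± 0.17, adjusted p = 8.00e-05) and CBX8 from 36.2 ± 4.45 to 71.4 ± 3.98 CPM (0.98 ± 0.10, adjusted p = 2.24e-05). The ring finger genes PCGF5 (-0.96 ± 0.13, adjusted p = 0.000156) and PCGF6 (-0.74 ± 0.12, adjusted p = 0.000672) fell most. The other 3 that fell, named after their values were seen, were RNF2, the catalytic E3 ligase of the complex, SCML2 and YAF2, at -0.31 to -0.43. CBX7, CBX8, PCGF5 and PCGF6 stayed called with the GC correction, CBX7 at 1.12, CBX8 at 0.70, PCGF5 at -0.63 and PCGF6 at -0.41. Of the other 3, SCML2 stayed called at -0.14 (adjusted p = 0.0165), while RNF2 at 0.08 (adjusted p = 0.242) and YAF2 at -0.09 (adjusted p = 0.238) did not.

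Of 10 genes for H3K27 demethylases and the H2A deubiquitinase complex, which work against Polycomb marks, 7 were higher and 0 lower in OmoMYC, with a median of 0.40. Of all genes 27.3% were called higher and 25.7% lower. With the GC correction 6 were higher and 2 lower, with a median of 0.17, where 31.2% and 27.6% of all genes were. The 2 lower, named after their values were seen, were FOXK1 and FOXK2. FOXK1 went from called higher at 0.32 (adjusted p = 0.0220) to called lower at -0.10 (adjusted p = 0.0421). FOXK2 went from 0.06, not called, to -0.21 (adjusted p = 0.000121). ASXL3 rose from 52.2 ± 0.853 to 80.4 ± 0.828 CPM (0.62 ± 0.07, adjusted p = 4.13e-05) and MBD5 from 30.4 ± 1.76 to 45.4 ± 0.818 CPM (0.58 ± 0.08, adjusted p = 0.000165). The 25 genes of other complexes that hold RBBP4 or RBBP7 split into 8 lower and 7 higher, with a median of -0.02, shares near those of all genes, and into 10 lower and 7 higher with the GC correction. In that list the histone acetyltransferase HAT1 (-0.74 ± 0.09, adjusted p = 0.000118) and the DREAM complex gene LIN9 (-0.75 ± 0.11, adjusted p = 0.000238) fell, while the remodeller CHD5 rose by 1.40 ± 0.14 (adjusted p = 2.29e-05). All 3 stayed called with the GC correction, HAT1 at -0.46, LIN9 at -0.48 and CHD5 at 0.93. SIN3B rose by 0.35 ± 0.08 (adjusted p = 0.00395), but stood at -0.03 with the GC correction (adjusted p = 0.610).

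Known Polycomb target genes were mostly low. Of 19 listed developmental genes, 11 passed the filter. Of these 1 was lower and 3 were higher in OmoMYC, where 25.7% of all genes were lower and 27.3% higher. The median moved from 0.24 to -0.22 with the GC correction, under which 5 were lower and 3 higher, where 27.6% and 31.2% of all genes were. NGFR, a neurotrophin receptor gene, rose from 20.8 ± 2.68 to 452 ± 28.2 CPM (log2 fold change 4.44 ± 0.10, adjusted p = 4.25e-10). In the parental cells NGFR was lower than in EGFP, at 1.39 ± 0.192 CPM in DMSO and 1.45 ± 0.202 in dTAG47. That difference between experiments was not tested. CLU rose from 4.14 ± 0.117 to 10.1 ± 0.178 CPM (1.28 ± 0.10, adjusted p = 5.68e-06), and RUNX3 fell from 8.16 ± 0.506 to 6.58 ± 0.609 CPM (-0.31 ± 0.11, adjusted p = 0.0410). The remaining call, named after its values were seen, was SIX2 at 0.25 (adjusted p = 0.0457). Under the GC correction NGFR was at 4.08, CLU at 1.20 and RUNX3 at -0.59, all called, while SIX2 at -0.03 was not (adjusted p = 0.676). The other genes called under it were also named after their values were seen. PAX2 at -0.64, CDKN1C at -0.52, CDKN2A at -0.36 and CASZ1 at -0.22 were lower, and PAX6 at 0.48 was higher.

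Cell cycle genes moved in the same comparison as the members. Of 19 S phase genes 13 were lower and 0 higher in OmoMYC, with a median of -0.30. Of 13 G2/M genes 11 were lower and 0 higher, with a median of -0.61. Over all genes 25.7% were called lower and 27.3% higher. PCNA (-0.71 ± 0.08, adjusted p = 8.21e-05) and TYMS (-0.65 ± 0.08, adjusted p = 9.30e-05) fell most among the S phase genes, and CDK1 (-1.03 ± 0.14, adjusted p = 0.000168) and TTK (-0.73 ± 0.10, adjusted p = 0.000219) among the G2/M genes. After the GC correction 17 and 12 were lower, where 27.6% of all genes were. Among them were PCNA at -0.45, TYMS at -0.53, CDK1 at -0.54 and TTK at -0.45. EZH2 is commonly counted with the proliferation genes, and its log2 fold change of -0.25 ± 0.07 lay above the median of both lists, though near that of the S phase genes. With the GC correction EZH2 was at 0.01, against medians of -0.41 for the S phase and -0.47 for the G2/M genes. The part of cell cycle state in the members' values was not tested.

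Marker genes of neuroblastoma identity were examined as well. Of 9 adrenergic markers 5 were higher and 0 lower, where 27.3% and 25.7% of all genes were. Among the 5 were ISL1 (0.75 ± 0.08, adjusted p = 3.16e-05) and CHGA (0.37 ± 0.14, adjusted p = 0.0450). With the GC correction 4 were higher and 3 lower, where 31.2% and 27.6% of all genes were. ISL1 was then at 0.94, and CHGA at 0.12 was no longer called (adjusted p = 0.374). The other 3 higher, named after their values were seen, were CHGB and the enzyme genes TH and DBH, of which TH and DBH had a mean of at most 1.16 CPM in either group. Of 5 mesenchymal markers tested, COL1A1 rose by 0.57 ± 0.13 (adjusted p = 0.00466), DCN was higher at a mean under 1 CPM, and COL1A2 fell by 1.02 on the log2 scale (adjusted p = 8.36e-05). Corrected for GC, COL1A1 was at 0.15 and no longer called (adjusted p = 0.0568), and COL1A2 was at -0.84 and called. Of 5 blood, endothelial, epithelial and Schwann cell markers tested, the leukocyte gene PTPRC was lower, from 0.406 to 0.0392 CPM, and none was higher. In dTAG47 against DMSO, edgeR and DESeq2 each called 0 of the 117 tested genes in the Polycomb, cell cycle, adrenergic and mesenchymal lists, and 6 had an unadjusted p under 0.05. Of all genes, edgeR called 0.159% and DESeq2 0.408%, and by edgeR 1053 of 14470 had such an unadjusted p. CBX2 and RING1 (the latter under another identifier) had 0 to 5 counts in the engineered table but 1662 to 16317 in the parental table, and KDM2B and MTA1 were listed in the parental table alone, so these were not compared between the experiments.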

How the data were processed

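RNA-seq was available for 14 libraries of CHP-134 cells in 4 groups, taken from the labels. Per the study's methods the authors depleted ribosomal RNA, sequenced on a NovaSeq instrument, trimmed adapters with Cutadapt, aligned with STAR to hg19 (GRCh37) and counted with featureCounts; the annotation, strand setting and treatment of multi-mapped reads are not given in the sources used here. The deposited values are raw counts per gene, in 1 table for each experiment. The replicates are described as biological.

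Counts were tested with edgeR 4.0.16 (R 4.3.3) after filterByExpr and TMM scaling, with the robust quasi-likelihood test and Benjamini-Hochberg adjustment over all genes tested in a table, at 0.05. A log2 fold change is treated over control. CPM were computed with TMM factors, and RPKM divide them by the length of the union of annotated exons. Log2 CPM used a prior count of 2. The difference of effects was a contrast in 1 fit over all libraries. Ratios were tested by exact permutation. The fits were tested on simulated data. Alternatives were DESeq2 1.42.0, limma 3.58.1 (voom), other scaling, other filters, a replicate block, a factor for replicates 1 and 2 against 3 and 4, and leaving out each library. A correction for GC content and transcript length, added after seeing the data, removed each library's trend and kept its centre; 97.8% and 98.1% of tested genes had these features. Deviations of same-numbered parental libraries correlated at r = 0.22, 0.56, 0.48 and 0.63 over 10675 genes. The DMSO libraries of replicates 2 and 4 correlated best with the dTAG47 library of their own number, those of replicates 1 and 3 with another. Whether the numbers pair the libraries is thus unsettled, and blocked values stand beside the results they change.

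The members and lists were chosen with earlier results of these data known. Named were all 10 members, all other PRC2 accessory genes, the 5 genes closest to EZH2 in profile, MYC and MYCN, and from each other list the 2 called genes with the largest rise and fall at a mean of at least 1 CPM. The lists were Polycomb repressive complex 1, H3K27 demethylases with the deubiquitinase complex, other complexes with RBBP4 or RBBP7, Polycomb targets, S phase, G2/M and 3 sets of cell type markers. Promoter windows came from a RefSeq table on GRCh38 and were placed on GRCh37 by exact, unique match. Protein sequences were not used here. Single genes of the blood to Schwann cell marker set are in part not reported here.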

Additional observations from a re-analysis of the deposited data

Results flagged for a closer look

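In groups of 4, a library was marked when its gap to the nearest other, divided by the range of the group, exceeded Dixon's critical value at 95%. In all, 28 sets of values were examined, and chance marks about 1 in 20. EZH1 in DMSO was marked with a value of 0.864, since replicate 4 stood at 72.9 CPM against 65.5 to 66.5 CPM in the others. Without DMSO replicate 4 the log2 fold change of EZH1 in dTAG47 was 0.08 ± 0.05 (edgeR adjusted p = 0.574). PHF19 in dTAG47 was marked with a value of 0.847, since replicate 2 stood at 52.6 CPM against 60.3 to 61.7 CPM in the others, and without it the log2 fold change was 0.05 ± 0.05 (adjusted p = 0.545).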

How the results depend on the processing

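Members called lower in OmoMYC numbered 7 to 9 when each library was left out, and members called higher 0 to 1, the 0 coming without EGFP replicate 2 or OmoMYC replicate 3. Of all genes, 25.7% were called lower and 27.3% higher with all libraries, and 27.8% lower without EGFP replicate 1. For the difference of effects the ranges were 6 to 7 below 0 and 0 to 1 above 0, the 0 without EGFP replicate 2, OmoMYC replicate 3 or DMSO replicate 4. With all libraries 24.0% of all genes were called below 0 and 19.7% above. Shares in the other fits with a library left out are not given here. Same-numbered EGFP and OmoMYC libraries correlated at r = 0.19, -0.17 and 0.62, and only replicate 3 correlated best with its own number. With a replicate block JARID2 became called (-0.16, adjusted p = 0.0385) and no other member call changed. In dTAG47, 2 members were called lower with the replicate block, with the factor for replicates 1 and 2 against 3 and 4 and in replicates 3 and 4 alone, against 0; calls over all genes, 6 lower and 17 higher, became 362 and 306, 420 and 374, and 470 and 426 there. They were 15 and 44 by DESeq2, 3 and 4 in replicates 1 and 2 alone, 41 and 75 with the GC correction, 75 and 158 with the GC correction and the block, 2 to 32 and 4 to 52 with a library left out, and 11 higher by library size only.

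With the GC correction, without and with the block, log2 fold changes of the members changed sign for EZH2 (0.01) in OmoMYC and for EED (0.01), EZH2 (0.02) and RBBP4 (0.03) in dTAG47. Of 118 other list genes in OmoMYC, 28 changed sign with the correction, SIN3B (-0.03) among them, 15 lost a call, 31 gained one, and FOXK1 was called higher without and lower with it. The log2 ratios in OmoMYC became -0.17 (EZH2 over EZH1), -0.18 (JARID2 over AEBP2) and 0.20 (MTF2 over PHF19), and EZH2 over EZH1 in dTAG47 0.01. Members near 0 in dTAG47 changed sign elsewhere: PHF19 with upper quartile factors (0.00) and in replicates 3 and 4 alone (0.01), RBBP4 in replicates 1 and 2 alone (0.00), and EZH2 (0.01) and JARID2 (0.03) in replicates 3 and 4 alone. With a library left out, RBBP4 ran from -0.03 to 0.01, RBBP7 from 0.00 to 0.03, PHF19 from -0.03 to 0.05 and JARID2 from -0.02 to 0.01, and the log2 ratio of RBBP4 over RBBP7 from -0.04 to 0.00. JARID2 over AEBP2 ran from 0.07 to 0.20 in dTAG47. Without dTAG47 replicate 2 its exact permutation p was 0.0286, unadjusted and picked from the many ratio tests with a library left out. With all libraries that p was 0.200, and 0.400 adjusted over the 8 ratio tests.

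Counts of called list genes in OmoMYC, with a library left out, ran from 3 to 9 (Polycomb repressive complex 1, higher), 3 to 7 (complexes with RBBP4 or RBBP7, higher), 0 to 3 (Polycomb targets, lower), 0 to 2 and 3 to 5 (adrenergic, lower and higher), 1 to 2 and 1 to 2 (mesenchymal, lower and higher), and 0 to 1 and 0 to 1 (other PRC2 accessory genes, lower and higher); in dTAG47 the blood to Schwann cell list ran from 0 to 1 higher. By library size only, 0 Polycomb targets were lower. With the GC correction 5 Polycomb targets, 3 adrenergic markers and 2 demethylase and deubiquitinase genes were lower, 1 mesenchymal marker was higher, and 0 other accessory genes were lower and 1, LCORL, higher; in dTAG47 1 Polycomb repressive complex 1 gene (RNF2) and 1 S phase gene (MCM6) were higher and 1 deubiquitinase gene (FOXK1) was lower. The cause of these changes was not tested. Depth does not limit the members, which had at least 522 counts in every library, but 8 of 19 and 14 of 24 Polycomb targets were too low to test.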
